A study of Mus musculus with 4 samples.

Results

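DNA methylation was described here for the killer cell lectin-like receptor genes of mouse chromosome 6 and for the Clec2 genes that lie among them. Members were the genes on that chromosome whose symbols start with Klra, Klrb, Klrc, Klrd, Klre, Klrg, Klri, Klrk or Clec2, which gave 39 of the 49209 RefSeq genes on chromosomes 1 to 19 and X of GRCm38.p6 (mm10). Another 2 genes of these names, Klra16 and Klra23, are placed off the primary chromosome and were left out. The families counted 14 Klra, 6 Klrb, 3 Klrc, 5 Klrd, Klre, Klri or Klrk, 2 Klrg and 9 Clec2 genes. Of the 39 genes, 36 lie together from Klrb1a to Klra2 (chr6:128609227-131247716), called the cluster here, whereas Klrg2, Clec2l and Klrg1 lie elsewhere on the chromosome. The set was chosen by measured values, the summed methylation of these gene spans and of 100 kb windows at the 2 culture ages, so its values are given as a description with no test.

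The study compared germline stem cells, a culture of spermatogonial stem cells, after about 5 months (5M-GS) and about 60 months (60M-GS) in culture. Both ages came from testis of mice labelled wild type, of the Green line (C57BL/6 with Tg14(act-EGFP)OsbY01) on a DBA/2 background, so every sample carries an EGFP transgene under an actin promoter. Both were grown in an Iscove-based medium with human FGF2, rat GDNF and fetal bovine serum. The labels name 2 replicates per age and do not say whether these came from separate cultures or donors. The authors deposited 1 table per age with its replicates pooled, so no spread between replicates can be given, and the age of the culture cannot be told apart from anything else that differs between the pools. Depth was similar, with 468121185 calls over 19371838 CpGs in 5M-GS (median 21 per CpG) against 471693518 over 19341319 in 60M-GS (median 22).

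Killer cell lectin-like receptors are type II membrane proteins of natural killer (NK) cells that read MHC class I and related molecules on other cells. Inhibitory members carry a tyrosine motif that recruits phosphatases, and activating members signal through adaptors such as Tyrobp (DAP12) and Hcst (DAP10). The Klra genes encode the Ly49 receptors, a gene set that differs in number and sequence between mouse strains, and Clec2 genes encode lectins that serve as ligands of Klrb1 receptors. The mm10 reference is from C57BL/6J. No RNA was measured here.

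A level is the methylated share of all calls, in percent, summed over CpGs that had 5 or more calls in each table. Differences are 60M-GS minus 5M-GS in percentage points. Intervals are 95% intervals, Wilson for a level and Newcombe for a difference, and they describe counting error only. They treat every call as independent, which calls on 1 read are not, so they can be too narrow even for that. Gene spans were taken with 2 kb on each side and needed at least 4 such CpGs, which 35 of the 39 genes had.

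The 250 bases before the RefSeq start of 4 members show the kinds of 5' region in the cluster, with each CG in capitals. They were chosen to set Clec2m, which held the largest 5' difference, beside Clec2d, a ligand gene with a low 5' level at both ages, and the receptors Klrb1b and Klra1, with high levels at both. The sequences are from RefSeq on GRCm38.p6, 5' to 3' on the strand of the gene: Clec2m at chr6:129331782-129332031 (minus), Clec2d at chr6:129180365-129180614 (plus), Klrb1b at chr6:128826316-128826565 (minus) and Klra1 at chr6:130386875-130387124 (minus).
Clec2m: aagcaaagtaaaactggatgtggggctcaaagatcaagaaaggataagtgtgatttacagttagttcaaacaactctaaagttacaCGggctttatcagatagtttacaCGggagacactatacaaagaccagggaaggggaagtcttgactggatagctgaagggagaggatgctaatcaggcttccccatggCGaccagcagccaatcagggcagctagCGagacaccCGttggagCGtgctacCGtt
Clec2d: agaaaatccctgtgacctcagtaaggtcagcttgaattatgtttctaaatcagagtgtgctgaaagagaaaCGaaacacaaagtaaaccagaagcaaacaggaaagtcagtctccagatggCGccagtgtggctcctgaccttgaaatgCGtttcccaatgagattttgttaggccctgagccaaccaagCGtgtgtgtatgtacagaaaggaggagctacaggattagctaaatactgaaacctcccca
Klrb1b: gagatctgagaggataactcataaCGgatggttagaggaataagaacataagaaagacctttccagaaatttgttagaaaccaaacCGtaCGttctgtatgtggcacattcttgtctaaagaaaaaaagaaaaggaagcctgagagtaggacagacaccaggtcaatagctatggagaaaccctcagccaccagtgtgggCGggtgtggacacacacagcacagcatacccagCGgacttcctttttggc
Klra1: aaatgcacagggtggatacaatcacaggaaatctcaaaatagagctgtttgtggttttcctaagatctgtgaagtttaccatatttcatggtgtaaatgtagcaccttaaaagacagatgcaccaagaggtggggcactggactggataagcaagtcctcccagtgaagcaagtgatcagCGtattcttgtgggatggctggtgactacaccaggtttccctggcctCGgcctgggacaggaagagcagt
The 7 CGs of the Clec2m sequence lie 164, 141, 56, 29, 20, 12 and 4 bases before the start. In 5M-GS they were methylated at 6.67%, 5.88%, 3.85%, 0%, 0%, 0% and 11.8%, and in 60M-GS at 37.5%, 29.4%, 33.3%, 40.7%, 28.0%, 47.6% and 56.3%. Every one of these CGs was thus higher in 60M-GS, on 15 to 29 calls per CpG in 5M-GS and 16 to 32 in 60M-GS. The 4 CGs of the Clec2d sequence stayed near 0 in both tables, at 4.0%, 2.63%, 0% and 0% in 5M-GS and 0%, 2.33%, 0% and 0% in 60M-GS. The 5 CGs of Klrb1b lay between 71.4% and 100% in 5M-GS and between 85.7% and 100% in 60M-GS. The 2 CGs of Klra1 stood at 92.9% and 86.2% in 5M-GS and at 91.7% and 100% in 60M-GS.

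The sequences also differ in how much of them the reads reached. Of the CGs in the 300-base RefSeq promoters (250 bases before to 50 after each start), each counted once where starts lie close together, the tables listed 17 of 23 in Klra genes, or 73.9%, against 89 of 93, or 95.7%, in the other members and 98.1% at all starts. With at least 5 calls in both tables these shares were 52.2%, 87.1% and 90.8%. The 36 member promoters, some of which overlap, held a median of 2.5 CGs, against 7 at all 32619 starts. The core motif of RUNX factors (TGTGGT, either strand) was found in 9 of 36 member promoters, or 25%, and in 16.6% of all promoters. The core motif of TCF factors (CTTTGA) was found in 9 of 36, or 25%, and in 16.0% of all, and the ETS core (AGGAAG) in 12 of 36, or 33.3%, and in 35.2% of all. The shares differed by family. In the 13 Klra promoters they were 7.69% for RUNX, 23.1% for TCF and 15.4% for ETS. In the 23 promoters of the other members they were 34.8%, 26.1% and 43.5%. These matches describe the sequence alone.

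Coverage set which receptors could be described. Medians here are over genes with at least 4 CpGs that had 5 or more calls in both tables. The median member had that depth on 77.6% of its listed CpGs, against 93.3% for the median gene, and the Klra genes on 64.5%. Klra6, Klra11-ps, Klra8 and Klra14-ps fell under that limit and enter none of the medians of this paragraph. The Klra genes from Klra6 to Klra14-ps were the poorest. Klra6 had 0 of 14 listed CpGs at that depth, Klra4 (Ly49D, an activating receptor) 6 of 56, Klra11-ps 2 of 14, Klra8 2 of 10 and Klra14-ps 1 of 5. Klra17 stood at 40.7% and Klrb1c, the gene of the NK1.1 antigen, at 46.7%. By family, the median was 84.5% for Klrb, 60.7% for Klrc and 88.6% for Clec2. The Klra spans also listed fewer CpGs per kb, 2.93 against 6.16 for Clec2 and 10.0 for the median gene. CpGs under 10% in both tables, which can also be sites where the strain lacks the CG, made up a median of 14.8% of the CpGs in Klra genes, 2.15% in Clec2 genes and 9.26% in all genes. The part of strain differences and of close gene copies in the values below was not tested.

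**Figure D1:**
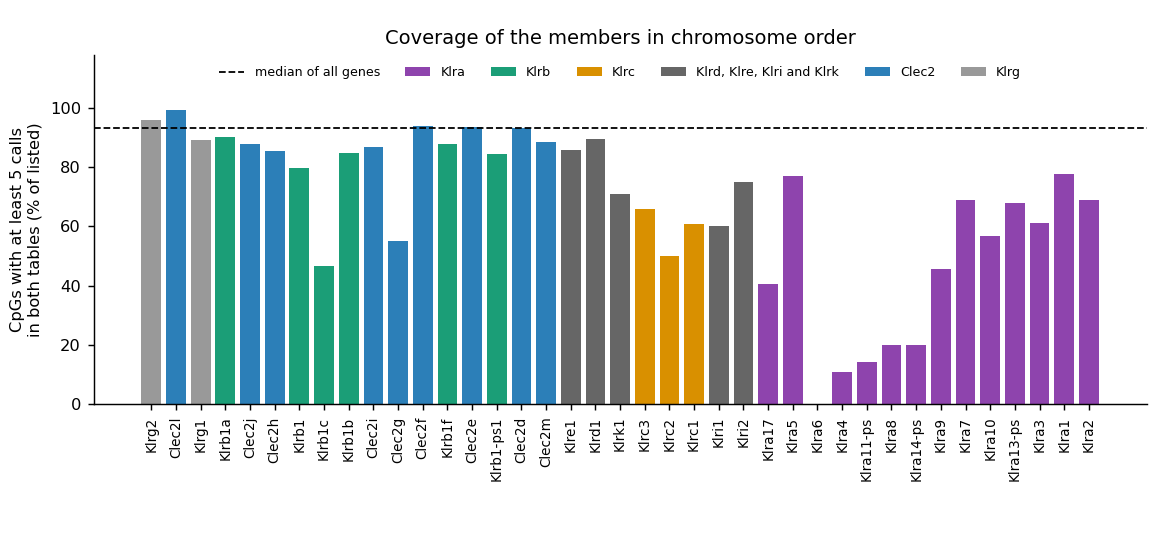
Share of each member's listed CpGs with 5 or more calls in each table (percent), with members in chromosome order and bars coloured by family. The dashed line at 93.3% is the median of all genes with at least 4 such CpGs. The Klra genes from Klra6 to Klra14-ps stand at 20% or less, and Klra6 at 0.

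Across the members with a level, 24 were higher and 11 lower in 60M-GS. Of all 47814 gene spans, 25910 were higher and 21895 lower. The median difference of the members was 2.64 points, against 0.28 points for all gene spans and 0.35 for those of chromosome 6. The members at least 20 points higher were Klra9 and Klra10, 2 of 35, where 4.36% of all gene spans were that much higher. With the mean of CpG levels in place of summed calls neither reached 20 points, at 17.7 for Klra9 and 14.9 for Klra10, and 1 member did with 5 kb flanks or with a minimum of 10 calls. At least 10 points higher were 6 members, all of them Klra genes, with 9.92% of all gene spans that much higher. No member was lower by 20 points (0.0502% of all gene spans) or by 10 points (0.502%). Summed over their 2992 CpGs, the members stood at 69.9% in 5M-GS against 72.0% in 60M-GS, differing by 2.10 points (interval 1.61 to 2.58). Chromosome 6 as a whole went from 75.4% to 77.0%.

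**Figure D2:**
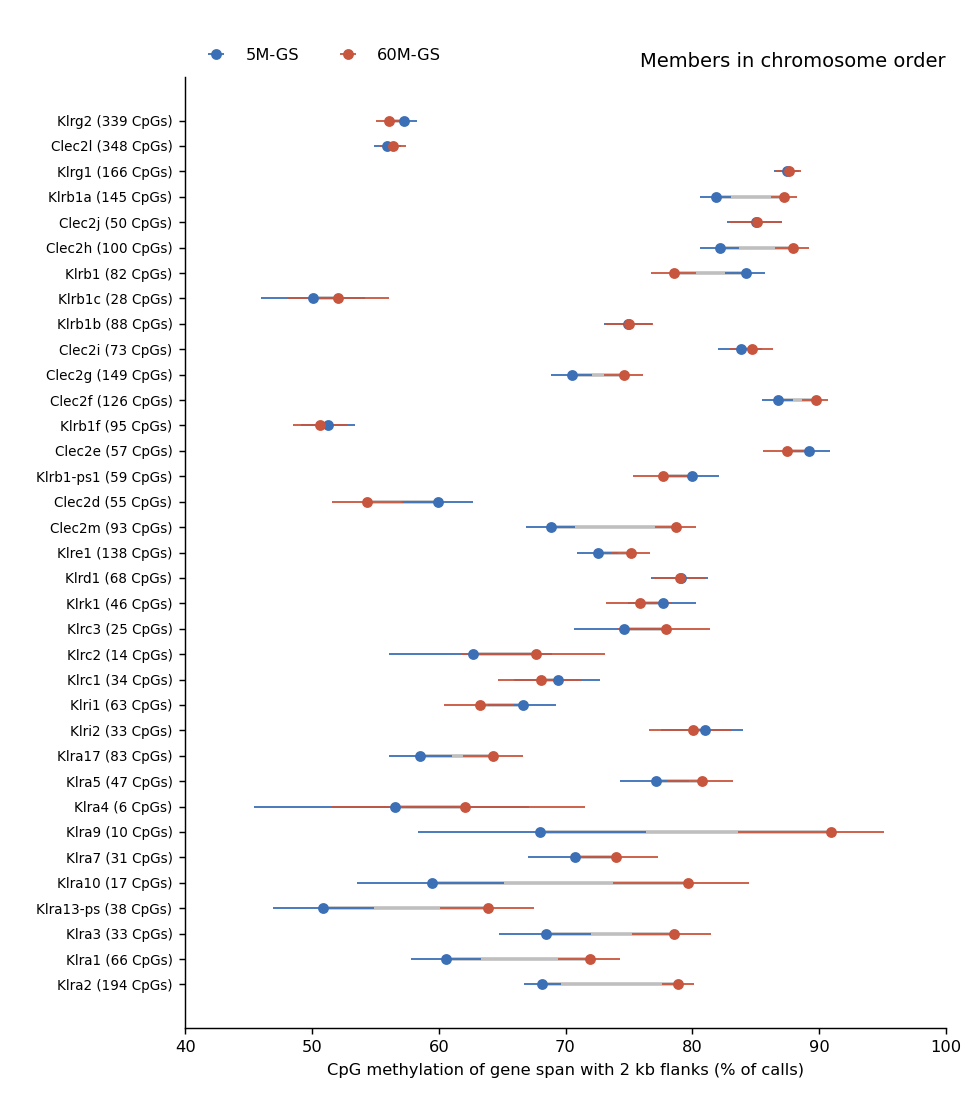
Methylation of each member's gene span with 2 kb flanks (percent of calls) in 5M-GS (blue) and 60M-GS (red), for the 35 members with at least 4 usable CpGs in chromosome order. Lines are 95% Wilson intervals. The 10 Klra genes in the lowest rows all have the red point to the right, and the other families have points on both sides.

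The Klra genes encode the Ly49 receptors. All 10 with enough CpGs were higher in 60M-GS, where 25910 of all 47814 gene spans were higher. The differences of these 10 Klra genes ran from 3.26 to 22.9 points, with a median of 10.4. Summed over 530 CpGs, they stood at 65.4% in 5M-GS against 74.5% in 60M-GS, 9.15 points higher (interval 7.88 to 10.4), and without Klra2, the gene with the most CpGs, they were 8.15 points higher. Klra9 (Ly49I, an inhibitory receptor, chr6:130178626-130194374) had the largest difference, from 68.0% of 100 calls in 5M-GS to 90.9% of 99 calls in 60M-GS. That is 22.9 points (interval 11.8 to 33.5) on only 10 CpGs. Klra10 (chr6:130269194-130283647) stood at 59.5% of 274 calls and 79.6% of 216 calls, 20.1 points higher (interval 12.0 to 27.8) on 17 CpGs. Both genes past 20 points therefore rest on few CpGs, and without them the Klra sum differed by 8.73 points.

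Klra1 and Klra2 were the better covered Klra genes on this side of the cluster. Klra1 (Ly49A, an inhibitory receptor for MHC class I, chr6:130363918-130386874) stood at 60.6% in 5M-GS against 71.9% in 60M-GS, 11.3 points higher (interval 7.63 to 15.0) on 66 CpGs. Klra2 (Ly49B, known from myeloid cells, chr6:131198970-131247716) stood at 68.2% and 78.9%, 10.7 points higher (interval 8.75 to 12.6) on 194 CpGs. Of these CpGs, 54 were at least 20 points higher and 1 was that much lower, where 6.91% and 3.75% of all CpGs were. Klra3 (Ly49C, an inhibitory receptor) stood at 68.5% and 78.6%, 10.1 points higher (interval 5.25 to 14.8), and the pseudogene Klra13-ps at 50.9% and 63.9%, 13.0 points higher (interval 7.497 to 18.3). The differences of these 4 genes lay within a few points of each other, and their intervals overlap.

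The remaining Klra genes differed less. Klra7 (Ly49G, inhibitory), at 70.7% and 74.0%, had the smallest difference of the family, 3.26 points (interval -1.71 to 8.19). Klra17 (Ly49Q, known from plasmacytoid dendritic cells) stood at 58.6% and 64.3%, 5.74 points higher (interval 2.29 to 9.17), and Klra5 at 77.1% and 80.8%, 3.62 points higher. For the activating receptors little could be said. Klra4 stood at 56.6% of 76 calls and 62.1% of 87 calls, and its interval of -9.40 to 20.2 points includes 0. Klra8 (Ly49H, which binds a cytomegalovirus protein) had 20 calls in 5M-GS and 18 in 60M-GS on 2 CpGs, at 75% and 77.8%, under the limit of 4 CpGs.

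The Klrb1 receptors did not share a direction: 3 were higher and 3 lower, with a median of -0.27 points. Klrb1a had the largest difference, from 81.9% in 5M-GS to 87.3% in 60M-GS, 5.39 points higher (interval 3.77 to 7.01) on 145 CpGs. Klrb1 had the lowest, from 84.2% to 78.6%, a difference of -5.66 points (interval -8.04 to -3.27). Of the 82 CpGs of Klrb1, 1 was at least 20 points higher and 11 were that much lower, where 6.91% and 3.75% of all CpGs were. Klrb1b, the inhibitory receptor for the Clec2d protein, stood at 75.0% in both tables, with a difference of 0.08 points (interval -2.61 to 2.76). Klrb1c (NK1.1, activating) stood at 50.1% and 52.0% (interval of the difference -3.82 to 7.71). Klrb1f, a receptor for the Clec2i protein, stood at 51.2% and 50.6%, and the pseudogene Klrb1-ps1 at 79.98% and 77.7%. Summed, the Klrb genes stood at 73.8% and 74.5%.

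The Clec2 genes, among them ligands of those receptors, ranged from -5.55 to 9.85 points with a median of 0.90, 7 of them higher and 2 lower. Clec2m (chr6:129322165-129331807) had the largest difference outside the Klra genes, from 68.9% to 78.7%, 9.85 points higher (interval 7.32 to 12.4) on 93 CpGs. Clec2d (Clr-b) had the lowest, from 59.9% to 54.4%, a difference of -5.55 points (interval -9.52 to -1.55) on 55 CpGs. Its receptor gene Klrb1b, above, had equal levels in both tables. Clec2i stood at 83.8% and 84.7%, and its receptor gene Klrb1f likewise differed by less than 1 point. Clec2h stood at 82.2% and 87.9%, 5.73 points higher (interval 3.68 to 7.76). Clec2g, at 70.5% and 74.6%, and Clec2f, at 86.8% and 89.7%, were 4.10 and 2.96 points higher. Clec2e stood at 89.2% and 87.5%, Clec2j at 85.0% and 85.1%, and Clec2l, which lies outside the cluster, at 55.9% and 56.4%.

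Klrd1 encodes CD94, which pairs with the products of Klrc1 (NKG2A, inhibitory), Klrc2 (NKG2C) and Klrc3 (NKG2E) to bind the Qa-1 molecule. Klrd1 stood at 79.1% in 5M-GS against 79.0% in 60M-GS, differing by -0.05 points (interval -3.13 to 3.05). Klrc1 had the lowest difference of its family, from 69.4% to 68.0%, -1.39 points (interval -6.11 to 3.36). Klrc2 had the highest, from 62.7% to 67.7%, 4.97 points (interval -3.64 to 13.6) on 14 CpGs, and Klrc3 stood at 74.6% and 77.9%. The intervals of Klrd1, Klrc1 and Klrc2 all include 0. Klrk1 encodes NKG2D, the activating receptor for the Raet1 and H60 ligands, and stood at 77.7% and 75.9%, a difference of -1.81 points (interval -5.52 to 1.93). Klre1, whose product pairs with that of Klri1 or Klri2, stood at 72.6% and 75.2%, 2.64 points higher (interval 0.42 to 4.85), and its flanked span overlaps that of Klrd1. Klri1, the inhibitory partner, stood at 66.6% and 63.2%, a difference of -3.42 points (interval -7.25 to 0.43), and Klri2 at 81.0% and 80.1%.

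Outside the cluster, Klrg1, an inhibitory receptor for cadherins, stood at 87.5% in 5M-GS against 87.6% in 60M-GS on 166 CpGs. Klrg2 stood at 57.3% and 56.1%, a difference of -1.16 points, on 339 CpGs. The 22 members of the cluster that are not Klra genes had a median difference of 0.09 points and none reached 10 points. The 7 Klra genes with a level from Klra9 to Klra2 had a median of 11.3, and 6 of them reached 10 points.

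Windows of 100 kb placed these genes in their surroundings. Of 40 windows over the cluster and its flanks, 36 had at least 100 usable CpGs, and 11 of these, or 30.6%, were at least 10 points higher in 60M-GS, where 6.38% of all windows were that much higher. Of these, 8 were at least 20 points higher (1.62% of all windows), and none was 10 points lower (0% of all windows). The largest differences lay between Klra1 and Klra2. The window at chr6:130500001-130600000 went from 45.5% to 78.8%, 33.3 points higher, and 0.0832% of all windows were at or above that difference. The windows starting at 130800001 and 130900001 went from 45.7% to 78.4% and from 48.7% to 81.4%, 32.7 and 32.6 points higher. The lowest differences lay before the first member: the windows starting at 128000001, 128200001 and 128100001 differed by -2.92, -2.32 and -1.53 points.

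**Figure D3:**
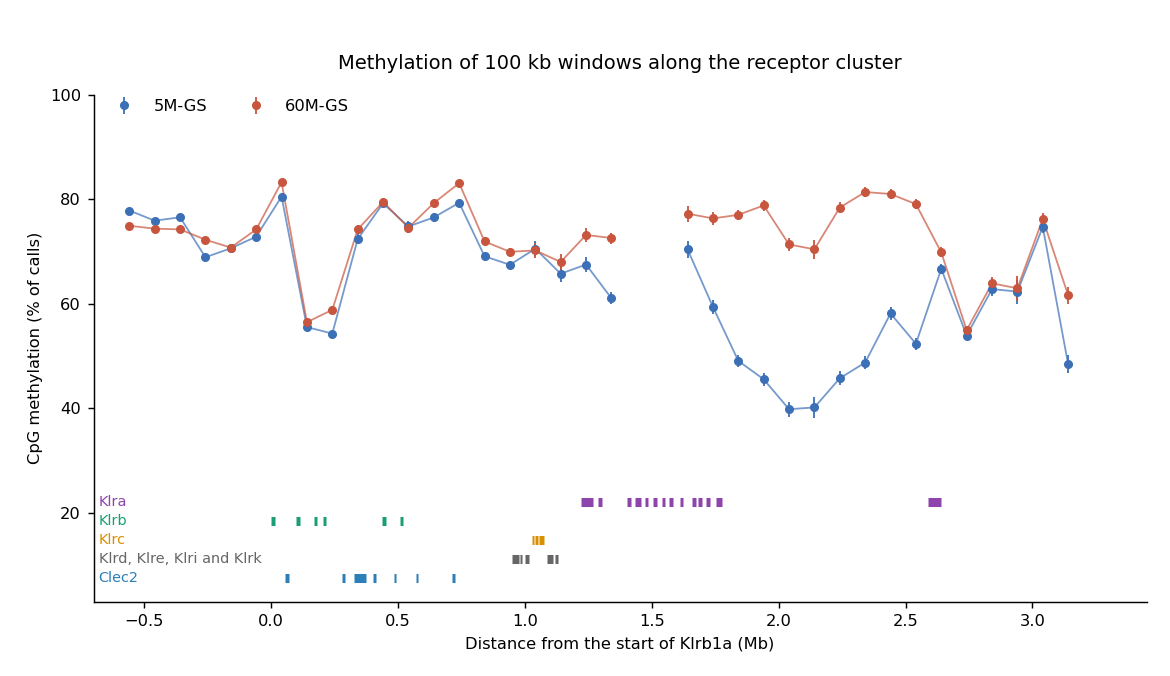
Methylation of 100 kb windows (percent of calls) against distance from the start of Klrb1a (Mb) in 5M-GS (blue) and 60M-GS (red), with 95% Wilson intervals as vertical lines and the members marked below by family. The tables run close together over the Klrb, Clec2 and Klrc genes and part between Klra1 and Klra2, where the window levels of 5M-GS lie well below those of 60M-GS. Windows with under 100 usable CpGs are left out, which leaves the gap at the Klra genes.

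The stretch between Klra1 and Klra2, 790 kb from chr6:130400001 to 131190000, holds no member. Its bounds were set after the windows were seen. RefSeq lists 5 protein-coding genes and 10 pseudogenes in it. It stood at 48.3% in 5M-GS against 77.9% in 60M-GS, 29.6 points higher (interval 29.0 to 30.2) on 2210 CpGs. Stretches that hold Klra genes, with the sequence between them, differed less. The stretch from Klra7 to Klra1, which adjoins it, went from 63.5% to 76.7%, 13.2 points higher. That of Klra17 and Klra5, further off, went from 63.4% to 72.8%, 9.42 points higher. The stretch from Klra6 to Klra9, at 59.2% and 69.2%, rests on 26 of its 223 listed CpGs. On the Klrb and Clec2 side, the stretch from Klrb1a to Clec2d went from 67.1% to 69.3%, and that from Clec2m to Klrh1 from 71.1% to 73.7%. Over 440 kb past Klra2, at higher coordinates, the levels were 61.1% and 61.8%. The next window, which starts at 131700001, was higher again, from 48.4% to 61.6%, 13.2 points on 200 CpGs, and the one at 131800001 went from 65.8% to 79.0% on 60 CpGs, under the limit of 100.

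Klra2 lies at the far edge of the highest differences. The gene is on the minus strand, so its RefSeq start is at its high-coordinate end (131247362). In pieces of 10 kb, the piece starting at 131180001, below its lowest coordinate, was 27.5 points higher. The next, which holds the end of Klra2 away from its start, was 25.7 points higher. Within Klra2 the pieces starting at 131200001 and 131210001 were 12.0 and 14.3 points higher. The piece at 131220001 was 1.42 points higher (interval -7.75 to 10.4, on 8 CpGs) and that at 131230001 was 10.5. The piece at 131240001, which holds the RefSeq start, was 4.50 points higher. The pieces upstream of the gene, starting at 131250001 and 131260001, differed by -2.49 and 1.33 points.

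Single CpGs showed how the levels were made up. Between Klra1 and Klra2, 59.5% of CpGs were at least 20 points higher and 1.18% that much lower, against 6.91% and 3.75% of all CpGs in the genome. The median CpG there went from 50% to 87.5%. In 5M-GS the CpGs of this stretch were spread almost evenly, with 18.3% of them at 80 to 100% methylation and 23.5% at 40 to 60%. In 60M-GS 69.96% of them were at 80 to 100%, and 4.34% at 40 to 60%. From Klra7 to Klra1, the share at 80 to 100% went from 40.05% to 69.7%, and 29.4% of CpGs were at least 20 points higher against 2.61% lower. From Klrb1a to Clec2d, that share went from 57.3% to 63.1%, with 9.69% of CpGs higher and 4.46% lower.

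**Figure D4:**
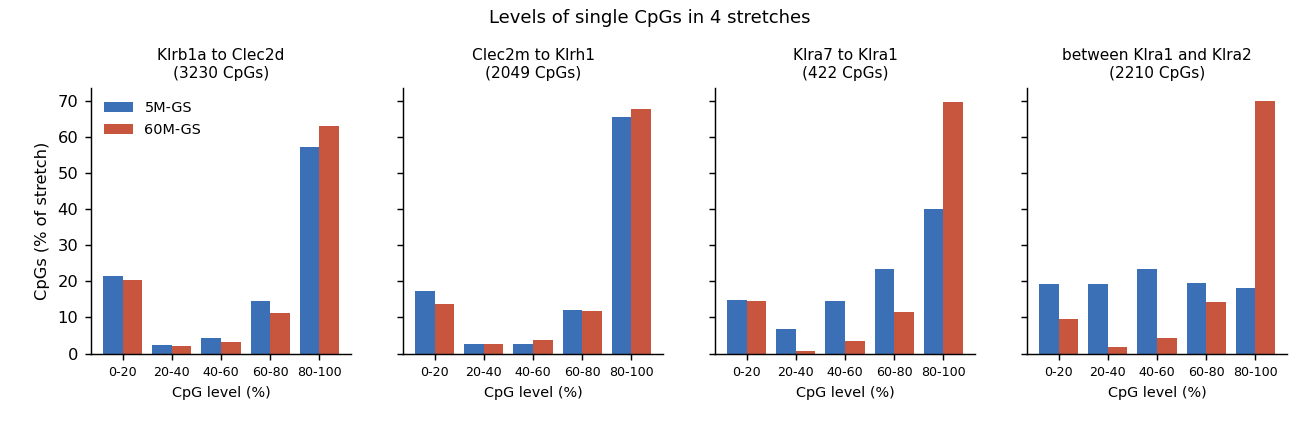
Share of CpGs (percent of the stretch) in 5 classes of methylation in 5M-GS (blue) and 60M-GS (red), for 4 stretches of the cluster. In the stretch between Klra1 and Klra2 the 5M-GS bars are of similar height, and 69.96% of 60M-GS CpGs fall in the class of 80 to 100%.

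The 5' window of a gene ran from 1000 bases before to 500 after its RefSeq start. RefSeq gave 36 starts of 30 members, and 23 starts of 20 genes had at least 4 usable CpGs. Of these, 15 were over 70% methylated in both tables, as were 10433 of all 30655 starts with that many CpGs. The median member start stood at 76.5% in 5M-GS against 80.4% in 60M-GS, against 12.3% and 15.4% for all starts. The member starts under 20% in both tables were those of Clec2d (7.46% and 5.38%), Klrg2 (7.60% and 7.88%) and Clec2l (5.38% and 5.30%). Of the 30655 starts, 15647 were under 20% in both tables. At least 20 points higher were 2 member windows, where 4.35% of all windows at starts were that much higher, and none was that much lower (0.532% of all).

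Clec2m had the largest of these differences, from 14.6% of 562 calls in 5M-GS to 54.7% of 616 calls in 60M-GS, 40.1 points higher (interval 35.1 to 44.8) on 19 CpGs. It is the gene whose 7 promoter CGs are shown above. Klrb1a went from 49.4% to 76.0%, 26.6 points higher (interval 17.7 to 34.9) on 9 CpGs. Clec2i, with the same values at both of its starts, went from 44.9% to 63.5%, 18.7 points higher (interval 8.71 to 28.1). The lowest difference was that of Clec2h, from 83.7% to 72.4%, -11.3 points (interval -21.2 to -1.45) on 6 CpGs, although its whole span was higher in 60M-GS.

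Among receptors, 5' levels were mostly high at both ages. Klra3 stood at 80.5% and 91.3%, Klra1 at 81.2% and 87.3%, and Klra2 at 87.5% and 94.4%. Klra7, at 54.4% and 57.7% on 9 CpGs, had the lowest 5' level among Klra starts with at least 4 usable CpGs. The other start of Klra7 stood at 83.0% and 81.3% on 2 CpGs, under that limit. Klrb1b stood at 75.9% and 80.4% at a start, Klrc1 at 75.7% and 81.1%, and Klrk1 at 86.1% and 80.4%. The windows of Klra6, Klra8 and Klra9 held no usable CpG.

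**Figure D5:**
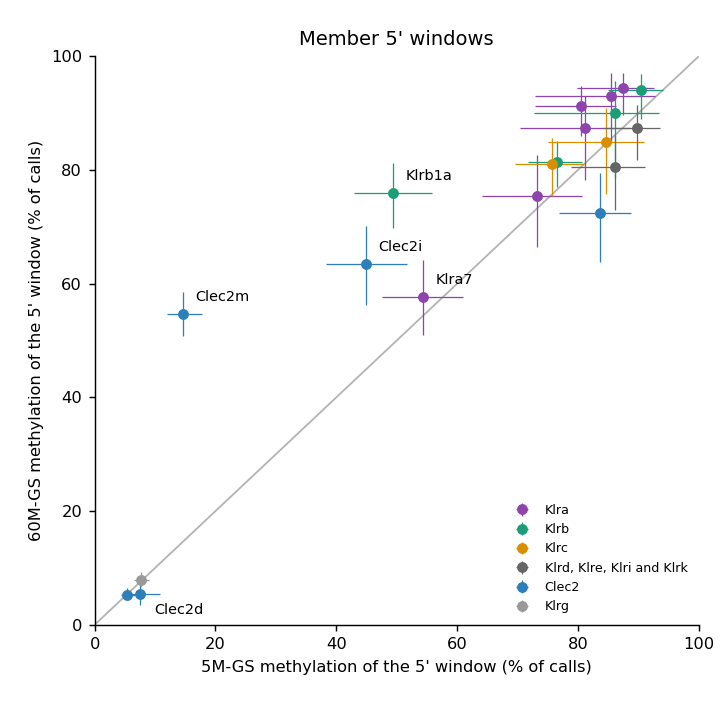
Methylation of each member's 5' window (percent of calls) in 60M-GS against 5M-GS, coloured by family, with 95% Wilson intervals and the line of equal levels. Most points lie at the upper right near the line, Clec2m, Klrb1a and Clec2i lie above it, and Clec2d, Klrg2 and Clec2l lie at the lower left.

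Tiles of 1 kb showed where in the genes the differences lay. Of 292 tiles with at least 4 usable CpGs in member spans, 17 were at least 20 points higher, or 5.82%, against 3.61% of all tiles, and none was that much lower (0.508% of all). Klra genes held 10 of these in 51 tiles, Clec2 genes 6 in 101 and Klrb genes 1 in 59. The largest difference was in Klra17, at chr6:129846001-129847000, from 30% to 81.6%, 51.6 points higher. The next was the tile of Clec2m that starts at 129331001 and holds its start, from 9.29% to 51.1%, 41.9 points higher. The tile of Klrb1a starting at 128623001 went from 30.5% to 71.7%, 41.2 points higher. In the other sense, a tile of Klrb1 starting at 128718001 went from 75.1% to 57.7%, -17.4 points. Tiles under 20% in both tables with at least 10 CpGs numbered 9, in 4 members, among them a tile of Klrb1f starting at 129049001, at 0.85% and 1.94% on 18 CpGs.

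Non-member genes of the same pathway, and other C-type lectin genes of chromosome 6, were taken from lists and termed pathway genes. They were tested by a two-sided Fisher's exact test, adjusted by Benjamini-Hochberg over all 47814 gene spans. The test compares 2 pooled tables, not culture ages, and a gene was called at an adjusted p under 0.05 with at least 20 points. By gene span, 1 of 17 other C-type lectin genes was called higher (4.35% of all gene spans) and none lower (0.0502%). That gene was Clec4a3, which lies outside the cluster at chr6:122952515-122969878. It went from 63.7% to 87.7%, 24.0 points higher (adjusted p of Fisher's exact test = 1.16e-103). With the calls of each span divided by its number of CpGs, so that a span counts as about 1 CpG, its adjusted p was 1 and none of the pathway spans was called. None was called in either direction among 11 ligand genes, 20 adaptor and signalling genes, 13 NK cell transcription regulators and 21 other NK cell receptors and effectors. Their median differences were 0.67, 0.09, 0.20 and -0.27 points, beside 0.28 for all genes. The other C-type lectin genes had a median of 3.33 points, with 3 of 17 at least 10 points higher. Among them were Clec4a2, also outside the cluster, by 17.5 points and Clec1b, which lies inside the cluster, by 16.7. Of the 11 ligand genes, H60c, a ligand of the Klrk1 receptor, stood at 53.5% and 66.0%, 12.5 points higher, which is under the limit of 20.

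At 5' windows, tested in the same way over all 30655 windows, 9 of 86 windows of pathway genes were called higher, or 10.5% (4.34% of all windows), and 2 lower, or 2.33% (0.528% of all). These are 8 and 2 of 67 genes, and a gene with several starts, whose windows can overlap, was counted if any was called. This test was chosen after the gene spans had been seen. When the calls of each window were divided by its number of CpGs, so that each window counts as about 1 CpG, 1 of the 8 higher genes and 0 of the 2 lower genes still passed. The gene that passed was Clec4a3, outside the cluster, from 20.9% to 92.5%, 71.6 points higher (adjusted p of Fisher's exact test = 1.17e-206, and 2.98e-05 with divided calls). Among 17 adaptor and signalling genes, 5 were called higher. Zap70, the kinase at activating receptors, went from 51.8% to 92.8% at 1 of its 3 starts (adjusted p of Fisher's exact test = 1.71e-126, and 0.067502 with divided calls), and Cd247, a receptor-coupled signalling chain, from 35.5% to 74.7% (adjusted p = 1.63e-41, and 0.43447 with divided calls). Lat, an adaptor, went from 39.1% to 75.5% and Inpp5d (SHIP1), a phosphatase of inhibitory receptors, from 30.8% to 63.1%, with adjusted p of 1.27e-61 and 7.41e-45, and 0.70453 and 0.54913 with divided calls. Lck, a kinase of the receptor motifs, was called lower at 1 start, from 68.8% to 46.6% (adjusted p of Fisher's exact test = 8.46e-15, and 1 with divided calls).

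Of 9 ligand genes with a 5' window, H60c was called higher, from 4.80% to 35.1% (adjusted p of Fisher's exact test = 6.95e-58, and 0.37399 with divided calls). Another 7 had a start under 10% in both tables, among them Raet1e, whose other start stood at 12.8% and 22.7%. Those 7 also include H2-K1 and H2-D1, the classical MHC class I genes that Ly49 receptors read, and H2-T23, the Qa-1 gene. Of 18 other NK cell receptor and effector genes, Slamf6 was called higher, from 55.1% to 85.4% (adjusted p of Fisher's exact test = 1.46e-27), and Cd160 lower, from 82.3% to 57.4% (adjusted p = 5.80e-14). With divided calls their adjusted p were 0.64983 and 1. All 10 NK cell transcription regulators had a start under 10% in both tables and none was called. Of these, Runx1 and Runx3 each had another start, at 61.0% and 53.1% for Runx1 and at 91.9% and 90.2% for Runx3. Of all 30655 windows at starts, 15647 were under 20% in both tables, and the share under 10% was not counted.

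The labelled cell type was checked at the same windows. Of 9 germ cell marker genes, 8 had a start under 10% in both tables, and the exception was Nanos2, at 63.6% and 55.1%. Among NK cell markers, Eomes (0.44% and 0.72%) and Tbx21 (1.91% and 2.39%) were as low. Ncr1 (84.5% and 77.6%), Prf1 (92.0% and 90.7%) and Gzmb (82.4% and 79.9%) were high. A low start was thus not particular to germ cell markers. Of all 30655 windows at starts, 15647 were under 20% in both tables. The 5 marker genes of other blood cells all stood at 45.1% or more in 5M-GS. Of these, Cd3e was called higher, from 49.8% to 79.6% (adjusted p of Fisher's exact test = 1.32e-25, and 0.79674 with divided calls). Methylation of a start does not measure expression.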

How the data were processed

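Whole-genome bisulfite sequencing was done in germline stem cells at 2 culture ages, from post-bisulfite adaptor tagging (PBAT) libraries, per the labels' protocols. Bismark 0.10.0 and the build mm10 are named, per the submitters' processing notes. Counts were deposited of methylated and of unmethylated calls per CpG, as made by the authors with no further normalization. The percent of methylated calls in them was computed by the authors from these counts and served here only as a check. The authors pooled both replicates of an age in 1 table, so the total and the median calls per CpG given for each age are those of the pool. How calls were filtered or deduplicated was not given in the sources used here, and chromosome Y was not used here.

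From the counts, levels were computed as summed methylated calls over all calls on CpGs that had 5 or more calls in each table, with Python 3.11.15, numpy 2.4.6, pandas 2.3.3 and scipy 1.17.1. Gene spans, 5' windows and 1 kb tiles needed 4 such CpGs and 100 kb windows 100. Genes, starts and promoter sequences were from RefSeq tables of GRCm38.p6. A gene listed with several starts has a 5' window for each. Levels have 95% Wilson intervals and differences Newcombe intervals. Fisher's exact test with Benjamini-Hochberg adjustment over every gene span or every 5' window was used for pathway genes only. On simulated spans, 198 of 200 spans changed by 30 points were recovered among 47814, with 0 false calls. The simulation drew every call independently, with no shared reads and no variation between pools. It therefore checks the computation and cannot give the rate of false calls in the real tables. The members and gene lists were chosen with earlier results of these data known. By rule, every member is accounted for by family, and values are given in full for the largest and smallest difference per family, for Klra4, Klra8, Klrb1b, Klrb1c, Klrc1, Klrd1, Klrk1 and Clec2d, for the 3 highest and 3 lowest windows and for up to 4 called genes per list. Further genes and the bounds of stretches were chosen after their values were seen. Alternatives changed the minimum of calls, the averaging, deep or low CpGs, flanks, window sizes, limits and the test. A planned comparison of protein sequences was not run.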

Additional observations from a re-analysis of the deposited data

How the results depend on the processing

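The count of members at least 20 points higher, 2 as reported, was 0 with the mean of CpG levels, 1 with 5 kb flanks, 1 with at least 10 calls and 6 with a limit of 10 points. The count of 11 of 36 windows (30.6%) was 23 of 72 (31.9%) with 50 kb windows, 5 of 18 (27.8%) with 200 kb windows and 4 of 22 (18.2%) with at least 300 CpGs. For pathway gene spans, 1 as reported, the count was 2 without flanks, 5 at 10 points and 0 with calls divided by CpGs. The 17 higher tiles were 28 at a minimum of 1 call, and the 0 lower tiles were 1 with that minimum and 1 with the mean of CpG levels. The 2 higher 5' windows were 1 with 250 bases before to 50 after the start and 4 without CpGs under 10% in both tables. Without such CpGs, the summed difference of all members was 3.04 points in place of 2.10, that of Klra genes 10.8 in place of 9.15 and that of the stretch between Klra1 and Klra2 32.1 in place of 29.6. The cause was not tested in any of these. Of 277 values of single members under the alternatives, 268 moved by less than their interval and 9 by more. The 6 members over 10 points kept their sign in every alternative run for them, with Klra9 between 17.7 and 23.7 points, Klra10 between 14.9 and 25.3 and Klra2 between 10.5 and 12.9. The 5' window of Clec2m was 30.1 points higher with 2000 bases before to 1000 after the start. No paired analysis was possible because each age is 1 pooled table with no replicate column, so replicates could not be left out either. Depth limits the Klra genes from Klra6 to Klra14-ps: on the 6 CpGs with at least 1 call in both tables, Klra6 had 7 calls in 5M-GS and 6 in 60M-GS.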
